A study of Danio rerio with 18 samples.

Results

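The comparison was of liver RNA from AB females with liver RNA from Tuebingen (TU) females, 2 wildtype laboratory strains of zebrafish. Its members were chosen by the strain and sex in the labels, and came to 6 of the 18 fish in the series, 3 AB females and 3 TU females, with 1 one-colour Agilent array per fish. Males of both strains and WIK fish, another strain, are described only where they bear on these 6. All fish were untreated adults of 12 to 18 months by the labels, raised for 2 generations in a single facility from stock-centre embryos, and were sexed by eye at dissection from eggs or testes. The study dissected AB livers in the morning and TU livers in the afternoon, so that strain and time of collection cannot be told apart. Fish of 1 strain came from 1 colony, so that the p-values measure the spread between these individuals and not between independent stocks.

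The liver of an egg-laying female makes yolk precursors and most plasma proteins, all of which enter the endoplasmic reticulum (ER) while they are being translated. A signal recognition particle brings the ribosome to the ER membrane, the Sec61 channel lets the chain through, and chaperones and disulfide isomerases fold it before vesicles take it to the Golgi. The same organ makes cholesterol, modifies foreign compounds with cytochrome P450 and sulfotransferase enzymes, and follows a daily clock. These functions set the gene lists described here.

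Of 45220 features on each array 1417 were controls, and spots of one probe were averaged to 43603 probes. Values are log2 spot intensity after background correction and quantile normalization, so that a difference of 1 is a 2-fold change. Well above background were 51.5% to 55.6% of the spots in AB females and 46.3%, 49.0% and 63.9% in TU females. The 8 hepatocyte markers were all above background on at least 3 of the 6 arrays, and none passed the test between the strains. Fabp10a, a liver fatty acid carrier, read 17.25, 18.10 and 17.86 in AB females and 17.19, 18.15 and 18.30 in TU females, with overlapping groups.

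TU female 3 stood apart from the other females. Vitellogenin 1 (vtg1), a yolk precursor that the liver makes under oestrogen, read 17.15, 16.67 and 16.64 in AB females and 17.02, 16.45 and 7.31 in TU females. Its oestrogen receptor esr1 read 12.65, 13.32 and 12.64 in AB females and 12.10, 11.80 and 9.05 in TU females. The low reading was that of TU female 3 in both. The enzyme gene hsd17b3 went the other way, with 5.87, 6.18 and 6.04 in AB females and 5.96, 6.09 and 10.90 in TU females. Over all probes TU female 3 correlated at 0.92 with the other TU females and at 0.94 to 0.97 with the TU males, while AB females correlated with each other at 0.97 to 0.98. Its label was kept. Values between AB and TU females use all 6 fish unless they are said to leave it out.

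**Figure D1:**
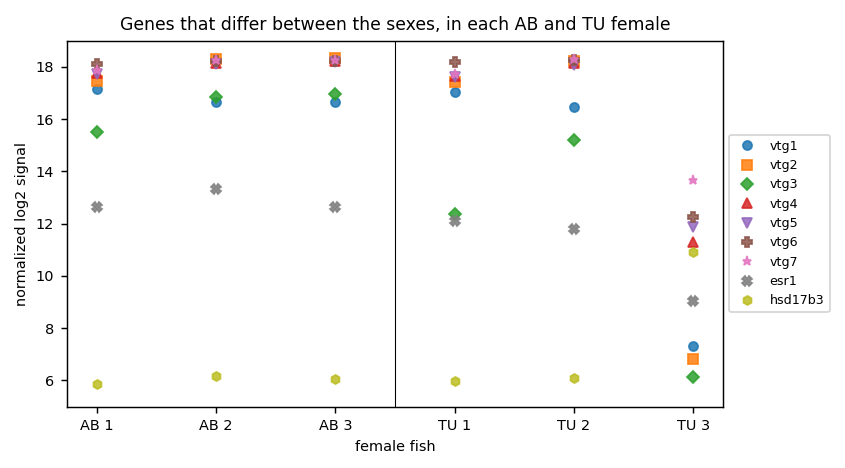
Normalized log2 signal (y axis) of 7 vitellogenin genes, esr1 and hsd17b3 in each AB and TU female (x axis), 1 point per gene and fish. TU female 3 reads 7.31 for vtg1 and 10.90 for hsd17b3, while the other 5 females read at least 16.45 and at most 6.18.

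The vitellogenin values turned on that fish. The log2 fold changes of vtg1 to vtg7, always given as AB minus TU, ran from 1.56 for vtg7 to 5.21 for vtg3 with all 6 fish, and none passed the test. Without TU female 3 they were, at the brightest probe, 0.09 for vtg1, 0.22 for vtg2, 0.16 for vtg4, 0.17 for vtg5, -0.03 for vtg6 and 0.12 for vtg7. In that fit another probe of vtg6, at 1.73 (adjusted p = 0.0165, limma), and another of vtg7, at 1.28 (adjusted p = 0.0409), passed. The remaining probes of both genes did not. Vtg3 stood at 2.67 without that fish (adjusted p = 0.192, limma) and its second probe at -4.24 (adjusted p = 0.225), in the opposite direction. The readings of the first were 15.52, 16.83 and 16.98 in AB females against 12.36, 15.19 and 6.13 in TU females. Esr1 stood at 1.89 with that fish and 0.92 without it (adjusted p = 0.188). The haemoglobin gene hbba2 read 15.93 in TU female 3 against 7.26 and 6.90 in the other TU females, and the lipogenic gene thrsp 16.82 against 6.27 and 8.13.

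Across all probes, 1440 of 43603 differed between AB and TU females (3.3%), at a Benjamini-Hochberg adjusted p of at most 0.05 in limma and at least a 2-fold change, which is the test meant below. Of these, 799 were higher in AB (1.83%) and 641 lower (1.47%), and the smallest adjusted p was 3.84e-06. With the scanner's own processed signal in place of quantile-normalized values 792 were higher and 1013 lower, a share higher of 43.9% in place of 55.5%, while the median of all probes moved to -0.30. Without TU female 3 the test called 1937 probes (4.44%), 1087 higher (2.49%) and 850 lower (1.95%). At 4-fold the count with all fish was 371 (0.851%). The count fell to 834 without AB female 1 and to 766 without AB female 2.

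Both fits, with and without TU female 3, called 1221 probes with 764 gene symbols, 684 higher and 537 lower in AB and none in opposite directions. This was 84.8% of the 1440. Their median absolute log2 fold change was 1.58, with 54 probes at least 8-fold higher and 57 at least 8-fold lower. The AB and TU readings did not overlap at 1219 of them, against 22.4% of all probes. The probes were chosen by the same readings, which largely sets that count, so it is no separate support. At 23 of the higher probes no TU array, and at 54 of the lower probes no AB array, was well above background. At gene level, taking the brightest probe of each symbol as in every count of a list below, 745 of 13566 genes passed (5.49%), 429 higher (3.16%) and 316 lower (2.33%). With TU female 3 left out it was 968 (7.14%), 578 higher (4.26%) and 390 lower (2.87%). A further 143 genes passed only at another of their probes.

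**Figure D2:**
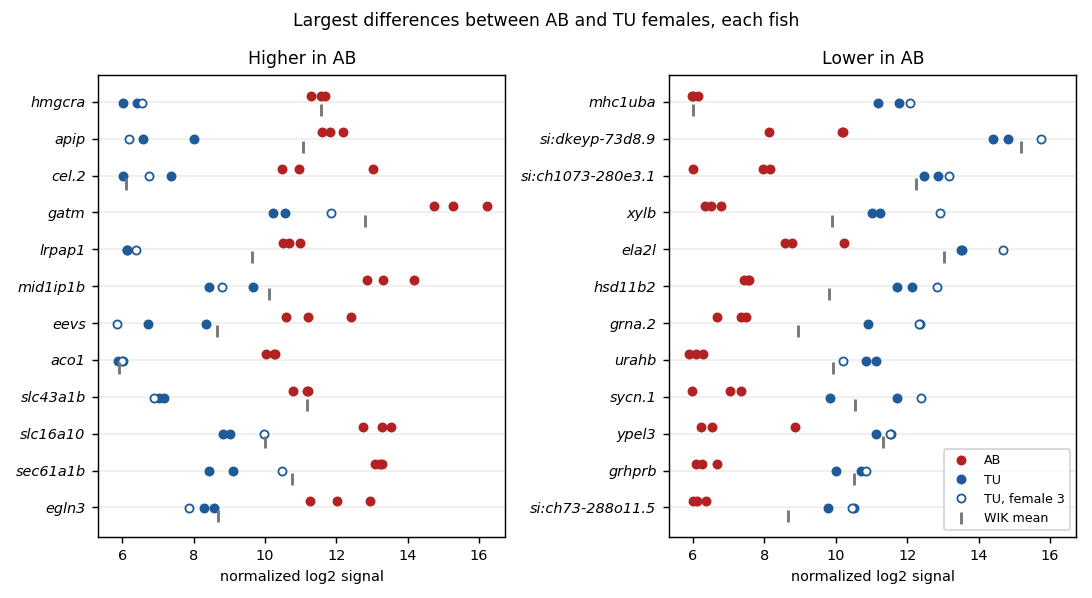
Normalized log2 signal (x axis) of the 12 genes with the largest log2 fold change in each direction (y axis) among probes past the test with and without TU female 3, with 1 point per fish and a tick at the WIK female mean. For hmgcra the AB females lie between 11.28 and 11.69 and the TU females between 6.04 and 6.55, and for mhc1uba the AB females lie between 5.96 and 6.12 and the TU females between 11.18 and 12.08.

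Among the genes in the plot of the largest differences, the largest upward in AB was hmgcra, HMG-CoA reductase, the rate-limiting enzyme of cholesterol synthesis. It read 11.69, 11.28 and 11.56 in AB females and 6.40, 6.04 and 6.55 in TU females, a log2 fold change of 5.18 (SE 0.23, adjusted p = 0.00015). WIK females averaged 11.58, close to AB. The other 2 probes of the gene were also called, at 1.56 and 4.26. Further steps of the same pathway were higher too, with hmgcs1, HMG-CoA synthase, at 1.85 (SE 0.36, adjusted p = 0.0271) and mvda, mevalonate diphosphate decarboxylase, at 2.17 (SE 0.34, adjusted p = 0.0127). All 3 were also called without TU female 3. The other 3 probes of hmgcs1 stood at 0.18 to 0.61 and were not called. Of 26 genes of cholesterol synthesis and uptake 3 passed upward (11.5%, against 3.16% of all genes) and 1 downward (3.85%, against 2.33%). Their median was 0.56 against -0.01 over all genes. The one lower was tm7sf2, a sterol reductase, at -1.16, which did not pass without TU female 3 (adjusted p = 0.0564). The other later enzymes did not pass either way, with fold changes from -0.48 for sc5d to 0.89 for ebp, whose adjusted p was 0.0372 at less than 2-fold.

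Among the 12 largest higher genes was apip, an enzyme of methionine salvage, which read 11.61, 11.81 and 12.19 in AB females and 6.58, 8.004 and 6.20 in TU females, a log2 fold change of 4.94 (SE 0.45, adjusted p = 0.0016). Gatm, which makes the creatine precursor guanidinoacetate, read 16.22, 14.73 and 15.28 in AB females and 10.23, 10.58 and 11.85 in TU females, a fold change of 4.53 (SE 0.67, adjusted p = 0.0099). Neither gene's groups overlapped. The amino acid transporters slc43a1b and slc16a10 stood at 4.02 and 3.91. The other probe of slc16a10 stood at 0.03 and did not pass, and of 4 others of slc43a1b, at 0.24 to 3.14, 1 did. Slc43a1b had a WIK mean of 11.19, within the AB range of 10.79 to 11.21.

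Aco1, the cytosolic aconitase that doubles as an iron-sensing RNA-binding protein, had the smallest p of all named genes. Its probe read 10.30, 10.02 and 10.25 in AB females and 5.88, 6.02 and 5.98 in TU females, where no array was well above background. AB was at least 18.3-fold higher (adjusted p = 3.84e-06). The other 2 probes of the gene stood at 0.08 and 0.32 and did not pass. Cmasa, which activates sialic acid, showed the same picture, with 1 probe at least 8.8-fold higher in AB and 2 others at -0.64 and -0.60. A fold of this kind sets the mean of the brighter strain against, on each array of the dimmer one, the higher of the probe's own signal and the dimmest signal still well above background.

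The rest of the higher group held lrpap1, a chaperone of lipoprotein receptors, at 4.51 (0.48 and 0.94 at its other 2 probes, not past the test), mid1ip1b, a regulator of acetyl-CoA carboxylase, at 4.49, and eevs, an enzyme of gadusol synthesis, at 4.44. Egln3, an oxygen-sensing prolyl hydroxylase, stood at 3.84. The bile salt-activated lipase cel.2 had 1 probe at 4.77, with 10.96, 13.02 and 10.48 in AB females and 6.02, 7.37 and 6.75 in TU females. A second probe of the same gene stood at -3.76, with all AB arrays below background, and the remaining one at -0.05. Of 516 called genes with 2 or more probes, 451 had all probes on the same side and 111 had all called in the same direction. Cel.2, cyp2k19 and ifngr2 had probes called in opposite directions. The match of each probe to the sequence of each strain was not analysed here.

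Among the plotted genes the largest difference downward was mhc1uba, an MHC class I heavy chain that presents peptides to T cells. It read 6.01, 6.12 and 5.96 in AB females, with no array above background, and 11.18, 11.78 and 12.08 in TU females, so that AB was at least 50.1-fold lower (adjusted p = 5.04e-05). All 3 of its probes were lower, at -5.65, -4.31 and -3.15. WIK females averaged 6.01 and lay with AB. Of 9 MHC class I genes it was the only one to pass at its brightest probe (11.1%, against 5.49% of all genes). At their brightest probes the light chain genes b2m and b2ml stood at -0.73 and -0.80, b2ml with an adjusted p of 0.0388 but less than 2-fold. Of the other 2 probes of b2m, 1 stood at -1.71 and passed in both fits, and 1 at -1.02 did not. Of 17 genes of antigen processing and MHC class II, 1 passed at its brightest probe, downward (5.88%, against 2.33% of all genes). It was psmb8a, an immunoproteasome subunit, lower by at least 3.37-fold, while psme1 at -0.60 did not pass. With all fish 0 of the 17 had a positive fold change, against 6625 of 13566 genes, and the median was -0.60. Without TU female 3 it was 2 of 17 and -0.49. Counting any probe of a gene, 3 were lower with all fish (17.6%, against 2.82% of all genes). The brightest probe of cd74a, the invariant chain, stood at -1.76 without passing (adjusted p = 0.0696), and its second probe at -1.72 passed in both fits (adjusted p = 0.0221). WIK lay with AB for psmb8a as well, at a mean of 6.05 against 5.97, 5.95 and 6.13 in AB females and 7.22, 7.38 and 8.73 in TU females.

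Several enzymes were lower in AB females than in TU females. For urahb and ggact.2 no AB array was well above background, while for xylb and hsd11b2 all 3 were. Urahb, which breaks down a product of uric acid, read 6.07, 6.27 and 5.87 in AB females and 11.12, 10.84 and 10.19 in TU females, at least 24.9-fold lower in AB (adjusted p = 0.000373). Xylb, xylulose kinase, stood at -5.19 (-1.17 at its second probe, not past the test) and grhprb, glyoxylate and hydroxypyruvate reductase, at -4.18, although 3 other probes of grhprb lay between -0.23 and 0.77. Ggact.2, a cyclotransferase that clears cross-linked lysine, was at least 5.22-fold lower with no AB array above background. Hsd11b2, which inactivates cortisol, read 7.43, 7.55 and 7.52 in AB females and 11.70, 12.13 and 12.83 in TU females, a fold change of -4.72 (SE 0.34, adjusted p = 0.000644). Both of its probes were called.

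Genes with less familiar roles were among the lowest as well. Si:dkeyp-73d8.9 read 8.11, 10.18 and 10.20 in AB females and 14.40, 14.83 and 15.76 in TU females, a fold change of -5.50 (adjusted p = 0.0033), with its second probe at -4.40. Another gene of the si: series, next below it in the plot of the largest differences, stood at -5.47, the yippee family gene ypel3 at -4.20 and si:ch73-288o11.5 at -4.08. Grna.2, a progranulin gene, read 7.33, 6.68 and 7.47 in AB females and 12.36, 10.91 and 12.34 in TU females, and grna.1 stood at -3.48, while 4 other progranulin genes did not pass. The progranulins were looked up after these values were seen.

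Genes of the ER passed in 1 direction only. Of 27 genes for entry of nascent proteins into the ER, 10 were higher in AB females and none lower, against 3.16% higher over all genes, and their median log2 fold change was 1.08 against -0.01. Without TU female 3, 11 passed upward and none downward with a median of 1.21, and 9 passed both times. Over all genes 4.26% passed upward in that fit. Sec61a1b, a pore subunit of the Sec61 channel, read 13.09, 13.29 and 13.21 in AB females and 9.12, 8.44 and 10.48 in TU females, a fold change of 3.85 (SE 0.67, adjusted p = 0.0184). Its second probe, at 0.90, did not pass (adjusted p = 0.103). Its paralogue sec61a1a, at 0.99, did not pass (adjusted p = 0.317). The particle subunits srp9 and srp14 stood at 2.37 and 1.86, srp19 passed as well, and its receptor subunits srpra and srprb at 2.09 and 2.11. The second probe of srprb, at 1.55 with all fish, passed only without TU female 3. Srp9 was separated in every fish, with 10.17, 10.67 and 10.05 in AB females and 7.76, 8.09 and 7.92 in TU females. The translocon helpers tram1, sec63 and ssr3 and the signal peptidase subunit spcs2 made up the rest, at 1.76, 1.31, 1.08 and 1.79. The oligosaccharyltransferase members rpn1 and rpn2, which glycosylate the entering chain, stood at 0.21 and 0.17 and did not pass.

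The unfolded protein response is the signalling that raises chaperone genes when unfolded protein builds up. Of 35 genes for this response and for folding in the ER, 10 were higher and none lower, with a median of 1.51. That was 28.6% higher, against 3.16% of all genes. Leaving out TU female 3, 20 were higher, the first 10 among them, against 4.26% of all genes, and the median was 1.71. The chaperone hspa5 (BiP) read 17.76, 16.54 and 15.97 in AB females and 13.44, 12.05 and 14.86 in TU females, a fold change of 3.30 (SE 0.76, adjusted p = 0.0477) with that fish and 4.01 without it (adjusted p = 0.0161). All 5 other hspa5 probes were called, between 3.00 and 3.45. The disulfide isomerase pdia6 stood at 3.51 and 4.19 in those fits, and the secreted ER stress protein manf at 3.35 and 4.24. The other 2 probes of pdia6, at 1.71 and 1.86 with all fish, passed only without TU female 3, while those of manf passed both times. Syvn1, a ubiquitin ligase of ER-associated degradation, stood at 2.56 and 2.91, and creld2 at 2.44 and 3.16. Another probe of creld2, at 2.13 with all fish, passed only without TU female 3, and a further one, at 1.42, passed both times.

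At 29 of the folding genes every AB female read above TU females 1 and 2, a share that was not counted over all genes. With all 6 fish the AB and TU readings did not overlap, in either direction, at 22.4% of all probes. That is another measure and gives no baseline for the 29 genes, which serve only to place TU female 3. Among the 29 genes TU female 3 lay in the gap at 13, at or above the lowest AB reading at 12, and no higher than the other TU females at 4. Pdia4 read 13.45, 13.07 and 12.97 in AB females and 9.38, 9.24 and 12.99 in TU females, and passed only without that fish, at 3.85 (adjusted p = 0.00468) in place of 2.63 (adjusted p = 0.187). Sdf2l1 and calr3b behaved likewise, at 3.20 and 3.91 without it. The sensor gene atf6 was higher in AB, at 1.71 (adjusted p = 0.0342). Xbp1, at 2.51, did not pass in either fit, with 15.26, 15.24 and 14.97 in AB females and 14.08, 12.83 and 11.04 in TU females. The stress-induced death factor ddit3, at -0.77, and the isomerase p4hb, at -0.45, did not pass, so not every member followed. Each fish mattered to the count for folding genes, which was 4 to 6 when any one of the 5 other fish was left out. The entry count was 4 without AB female 1 or AB female 2. With arrays scaled to their medians 2 entry genes and 1 folding gene passed with all fish, and 11 and 20 without TU female 3.

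**Figure D3:**
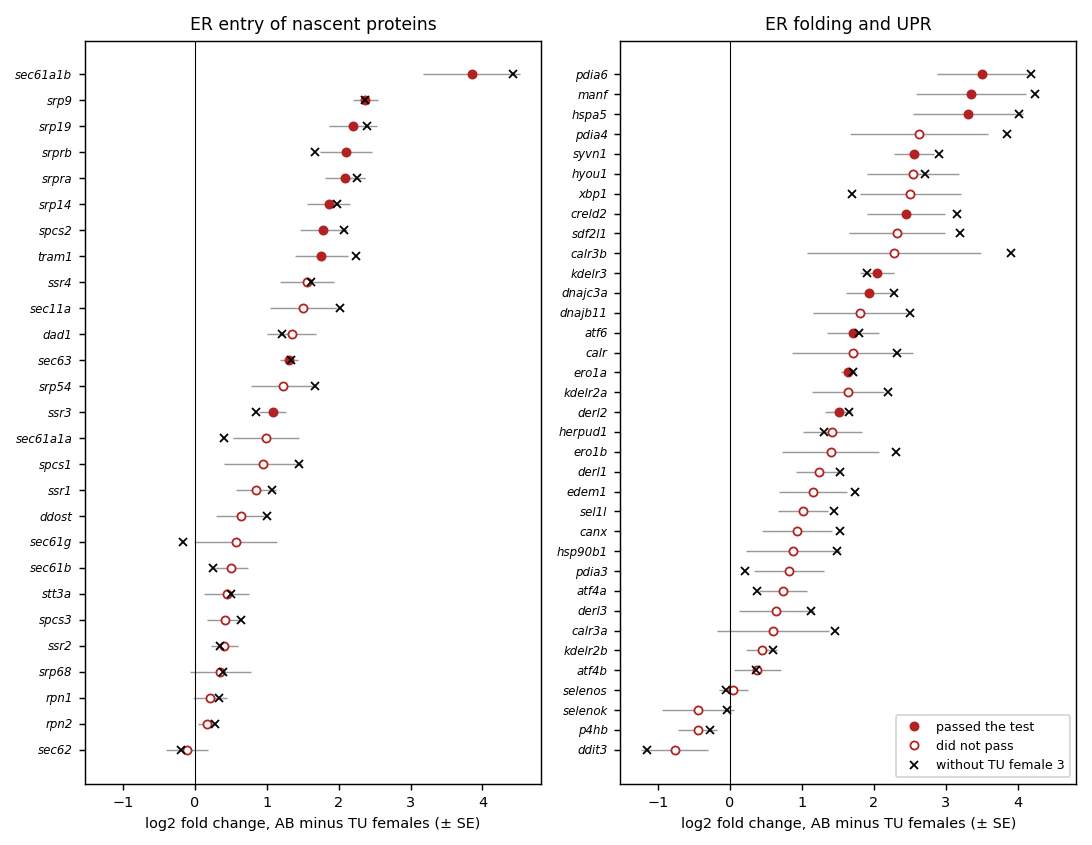
Log2 fold change, AB minus TU females (x axis, bars are the standard error), of 27 genes for entry of proteins into the ER and 35 for folding and the unfolded protein response (UPR), 1 gene per row. Filled circles passed the test with all fish, open circles did not, and crosses give the value without TU female 3. Most genes lie right of 0, with medians of 1.08 and 1.51 among all 6 fish.

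The medians of both lists were positive in each pair of an AB and a TU female scanned on the same day, at 1.30, 1.12 and 1.17 for entry and 1.69, 1.67 and 0.74 for folding. WIK females differed between the lists. At the folding genes WIK lay with TU, with a median of -0.28 for WIK minus TU and 1.78 for AB minus WIK, and hspa5 averaged 11.50 in WIK. At the entry genes WIK lay midway, at 0.49 and 0.46.

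The steps that follow folding were looked at in 2 further lists. They were drawn up after the values of neighbouring genes had been seen, and their counts are a description. Of 34 genes for transport of cargo between ER and Golgi 15 passed upward and none downward, and without TU female 3 this was 22 and none, where 3.16% and 4.26% of all genes passed upward. Tmed3, a cargo receptor, read 11.89, 11.68 and 12.48 in AB females and 8.41, 8.17 and 9.33 in TU females, a fold change of 3.38 (SE 0.44, adjusted p = 0.0064). The vesicle coat genes sec24c and sec31a stood at 1.27 and 1.59, and the coatomer genes copb1 and cope at 1.55 and 1.86. Of 22 genes that assemble the sugar chain added in the ER, 5 were higher, and 10 without TU female 3. Pmm2, which supplies mannose phosphate, read 10.13, 9.72 and 9.60 in AB females and 6.23, 6.51 and 8.34 in TU females, a fold change of 2.79, and gmppab and gmppb stood at 2.36 and 2.27.

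**Figure D4:**
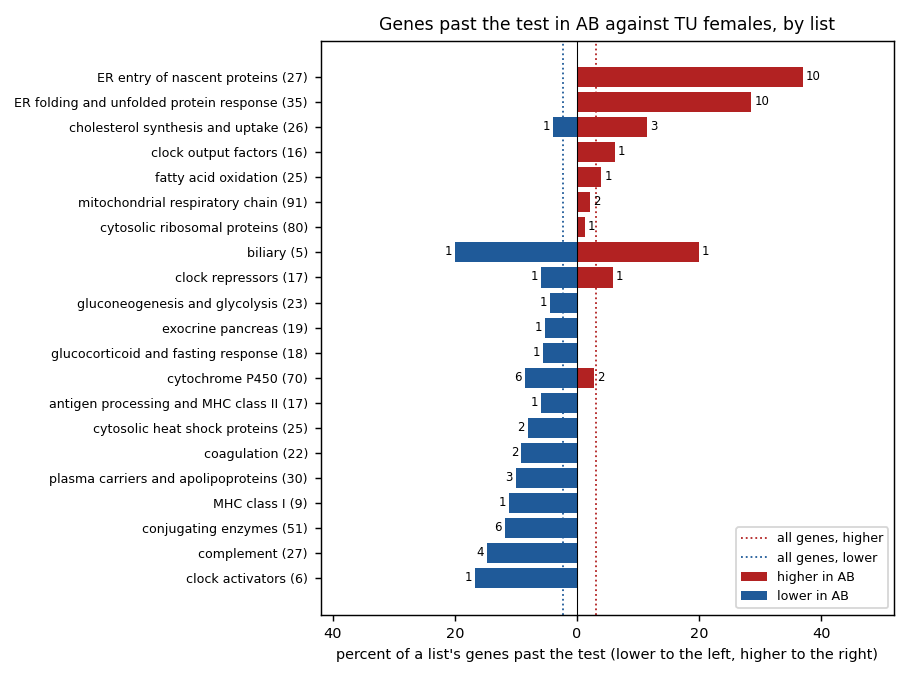
Percent of the genes of each list (y axis, number of genes in brackets) that passed the test higher (right) or lower (left) in AB than in TU females (x axis), with the number of genes at each bar and dotted lines at the shares over all genes, 3.16% higher and 2.33% lower. The ER lists reach furthest to the right with 10 genes each. With all 6 fish no gene of the complement or conjugating enzyme lists passed upward, while 4 conjugating enzymes did without TU female 3.

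Among genes that handle foreign compounds more passed downward than upward. Of 70 cytochrome P450 genes 6 were lower (8.57%) and 2 higher (2.86%), against 2.33% lower and 3.16% higher over all genes. Without TU female 3, 7 were lower and 3 higher, against 2.87% and 4.26% of all genes. With all fish and arrays scaled to their medians 1 was lower and none higher. The 6 lower ones were led by the cyp2aa cluster, with cyp2aa6 at 6.83, 7.13 and 7.53 in AB females and 10.73, 10.08 and 10.78 in TU females, a fold change of -3.37 (SE 0.28, adjusted p = 0.0011). Cyp2aa12 and cyp2aa2 followed at -2.13 and -1.78, and cyp7b1, an oxysterol hydroxylase, at -1.75. Another probe of cyp2aa2, at -0.34, did not pass in either fit. Further probes of cyp2aa12 lay between -3.46 and -0.89. The one at -0.89 was short of 2-fold in both fits, and one at -1.31 passed only with all fish. Members of this cluster are similar in sequence, and hybridization between copies was not tested. The 2 higher ones were cyp2x12, at 10.92, 11.03 and 11.83 in AB females and 6.98, 7.55 and 7.79 in TU females, a fold change of 3.82 (adjusted p = 0.00445), and cyp7a1b, a bile acid synthesis gene, at 1.74.

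Of 51 conjugating enzymes 6 were lower in AB (11.8%, against 2.33% of all genes) and none higher, and 4 of the 6 were all the sult3 sulfotransferases on the array that had a symbol. Sult3st4 read 8.71, 9.55 and 9.11 in AB females and 13.45, 14.43 and 11.35 in TU females, a fold change of -3.95 (SE 0.80, adjusted p = 0.031). Sult3st2 stood at -3.39 and sult3st3 at -2.90, and sult3st5 was at least 8.07-fold lower with no AB array above background. Their family resemblance was noted after the values were seen. The glucuronosyltransferase ugt5e1 stood at -1.43. Without TU female 3 the list gave 5 lower and 4 higher, against 2.87% and 4.26% of all genes, and its median moved from -0.53 to -0.07. The higher ones were sult1st6 at 1.86, ugt5c3 at 1.47, ugt5d1 at 1.15 and ugt2a3. Ptgr1.1, which reduces prostaglandins and reactive aldehydes, read 6.83, 6.77 and 7.38 in AB females and 10.04, 10.33 and 10.29 in TU females, a fold change of -3.23 (adjusted p = 0.0081).

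The complement, coagulation and plasma carrier genes that passed at the brightest probe with all 6 fish were lower in AB. Without TU female 3 there was 1 exception, higher, among the carriers, where 4.26% of all genes passed upward. Counting any probe of a gene, 1 coagulation gene was higher in that fit too. Of 27 complement genes 4 were lower with and without TU female 3 (14.8%, against 2.33% and 2.87% of all genes). Median scaling left none with all fish and 1 lower and 1 higher without TU female 3. Processed signal left 2 and 1 lower, and the list's median stayed negative in each. With processed signal it was -1.44 and -1.19, where the median of all probes was itself -0.295 and -0.56. The 4 lower genes were c6.2 at -2.11, c3a.6 at -2.07, the protease cfd at -1.58 and masp2, which starts the lectin pathway, at -1.52. Second probes of cfd and masp2, at -1.74 and -0.94 with all fish, passed only without TU female 3. A second probe of c6.2, at -2.06, passed only with all fish, and another, at -0.84, did not pass in either fit. C3a.6 read 10.44, 11.80 and 11.07 in AB females and 13.14, 12.74 and 13.64 in TU females. Of 22 coagulation genes 2 were lower (9.09%, against 2.33% of all genes), f7l at -2.37 and plg at -1.14. Plg was not past the fold without TU female 3, and f7 at -0.84 did not pass. Among 30 plasma carriers and apolipoproteins 3 were lower in each fit (10%, against 2.33% and 2.87% of all genes). The median of that list moved from -0.35 to -0.09 without TU female 3. The lower carriers were led by apoa1a, the main protein of high-density lipoprotein. It read 13.70, 11.70 and 12.14 in AB females and 16.47, 16.38 and 16.11 in TU females, a fold change of -3.80 (SE 0.52, adjusted p = 0.0076). Apoc4 stood at -1.27 and gc, the vitamin D carrier, at -1.14.

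Of 39 clock genes 2 passed upward and 2 downward at the brightest probe, 10.3% against 5.49% of all genes. Without TU female 3 it was 3 upward and 3 downward, where 7.14% of all genes passed. Bmal1a, the activator of the daily clock, read 6.80, 8.11 and 7.17 in AB females and 9.79, 9.70 and 9.54 in TU females, a fold change of -2.32 (SE 0.36, adjusted p = 0.012), and its paralogue bmal1b stood at 0.42. The repressor bhlhe41 was higher, with 9.91, 9.82 and 9.64 in AB females and 6.94, 7.09 and 6.98 in TU females, a fold change of 2.79 (SE 0.23, adjusted p = 0.0011). Cry3a stood at -1.20 and the output factor tefa at 1.66, and nfil3-6 at -0.20 did not pass. The probes of cry5 differed, with 1 at 2.45 that passed in both fits (adjusted p = 0.000603) and the brightest at 0.64 and another at 0.47 that did not. Nr1d1 passed only without TU female 3, at 3.13 (adjusted p = 0.0114). WIK females, collected in the afternoon like TU, averaged 9.57 for bmal1a and 6.44 for bhlhe41, on the TU side of both. They were nearer TU at 72.8% of the 1221 probes called in both fits as well. The part of collection time was not tested.

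Of 91 respiratory chain genes 2 were higher (2.2%, against 3.16% of all genes), cycsb (cytochrome c) at 2.83 and cox6a1 at 1.58, and without TU female 3 it was 6 higher and 1 lower (4.26% and 2.87% of all genes). Acsl1b, which activates fatty acids, stood at 2.60 and the ribosomal gene rps27l at 2.08, and neither passed without TU female 3. The glycolytic enzyme gapdh was lower at all 4 of its probes, at -1.19 for the brightest, which did not pass without that fish, and between -2.14 and -1.74 for the other 3, which passed both times, while pklr at -0.89 did not pass. Of 25 heat shock genes 18 had a positive fold change, with a median of 0.52, against 6625 of 13566 over all genes. The 2 that passed, hsc70 and dnaja2b, were lower, at -2.67 and -2.12 (8%, against 2.33% of all genes). Another probe of dnaja2b, at -0.41, did not pass in either fit. With TU female 3 left out hspa9, hspb1 and hspe1 passed upward as well, at 1.74, 1.25 and 1.39, where 4.26% of all genes passed upward. Fads2, a fatty acid desaturase, stood at 0.80 (adjusted p = 0.0533), thrsp at -1.49 with all fish and 1.72 without TU female 3, etfb at -0.31 and acadm at -0.61.

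The remaining genes that the rule named did not pass at the brightest probe with all fish. Slc38a4, a liver amino acid transporter, stood at 1.56 there and passed without TU female 3 at 2.16 (adjusted p = 0.0297), and 1 of its 5 other probes, at 1.82, passed in both fits. Also past the test without TU female 3 was fkbp5, a glucocorticoid-induced chaperone partner, at 2.58 (adjusted p = 0.0372) in place of 1.33. Tat, tyrosine aminotransferase, stood at 1.63, cebpd at 0.78 without a value for TU female 3, stk35 at -0.86 and lmbr1l at 0.64. The interferon-response genes mxc and stat2 stood at 0.35 and -0.04, the replication genes mcm7 and rrm1 at -1.56 and -0.76, and the ribosomal genes rpsa and rps25 at -0.06 and 0.10. At the brightest probe none of 19 interferon-response genes and none of 34 replication genes passed in either limma fit, against 5.49% and 7.14% of all genes, and 4 and 3 of them had an unadjusted p under 0.05 with all fish. Another probe of stat2 stood at 1.81 and passed in both fits.

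Genes of the exocrine pancreas, whose tissue lies around and within the fish liver, were mostly dimmer in AB females. Of 19 markers 18 had a negative fold change, with a median of -2.70 (-2.18 without TU female 3), while 6625 of all 13566 genes had a positive one. At the brightest probe 1 passed, downward (5.26%, against 2.33% of all genes). This was cel.2 at -3.76, which had another probe called upward, at 4.77. Ela2l, ela3l and prss59.1 passed lower at another probe. All 19 markers were above background on at least 3 of the 6 arrays, cel.2 at its brightest probe on none of the AB arrays. Their summed signal on the log2 scale was 15.51, 17.16 and 15.37 in AB females and 17.73, 18.07 and 19.81 in TU females, without overlap. The digestive proteases prss1 and prss59.2 stood at -1.79 and -3.04 without passing. Ela2l at -4.72 and sycn.1 at -4.52, both among the 12 largest downward, are genes of the same tissue, an elastase and a zymogen granule protein. The other 2 probes of ela2l stood at -2.69 and -2.90 and did not pass. In bulk tissue, fewer cells of a type and less RNA per cell cannot be told apart, and the part of pancreatic tissue in other differences was not tested.

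Among markers of the other tissues 2 biliary genes passed, hnf1ba and sox9b, and none of the others did at the brightest probe. The islet hormones ins, whose groups did not overlap, and sst2 stood at -2.92 and -1.48, and the intestinal genes fabp2 and chia.2 at 1.30 and -2.11, with TU female 2 highest in summed islet signal at 12.47 against 8.86 to 10.38 in the other 5 fish. The erythrocyte sum was 18.92 in TU female 3 and 13.66 to 14.89 in the others, and hbba1 stood at -2.10 with that fish and -0.88 without it. Another probe of hbba1, at -3.24 with all fish, passed only without TU female 3, at -2.02 (adjusted p = 0.0411, limma). Ovary genes zp3b and zp3 stood at -0.01 and -0.82, testis genes dmrt1 and cimap1b at 0.82 and -0.02, and muscle genes acta1a and acta1b at -0.47 each. Leukocyte genes lcp1 and coro1a stood at -0.98 and -0.77, and endothelial genes flt1 and pecam1a at 0.42 and 0.03. Of 16 ovary markers 7 and of 10 testis markers 4 were not above background in any of the 6 fish. The biliary genes split, with hnf1ba lower at -1.78 and sox9b higher at 1.64. The hepatocyte gene serpina1 stood at -0.62.

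The males of the same strains are other fish, fitted separately, and share slides but no individual with the females. In males 931 probes passed between AB and TU (2.14%), 506 higher (1.16%) and 425 lower (0.975%). Of the 1221 probes called in both female fits, 290 also passed in males in the same direction, 23.8% of the female and 31.1% of the male calls, and none in the opposite direction. The direction was the same at 1094 (89.6%), against 62.8% over all probes. The median male fold change was 0.73 at the probes higher in AB females, where the female median was 1.56, and -1.01 at those lower, where it was -1.60. These probes were chosen by a female change of at least 2-fold, so the medians do not compare the size of the strain difference between the sexes. Mhc1uba was lower in AB males at -6.90 (adjusted p = 8.76e-06), apip higher at 4.79, lrpap1 at 3.64 and slc43a1b at 5.66.

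**Figure D5:**
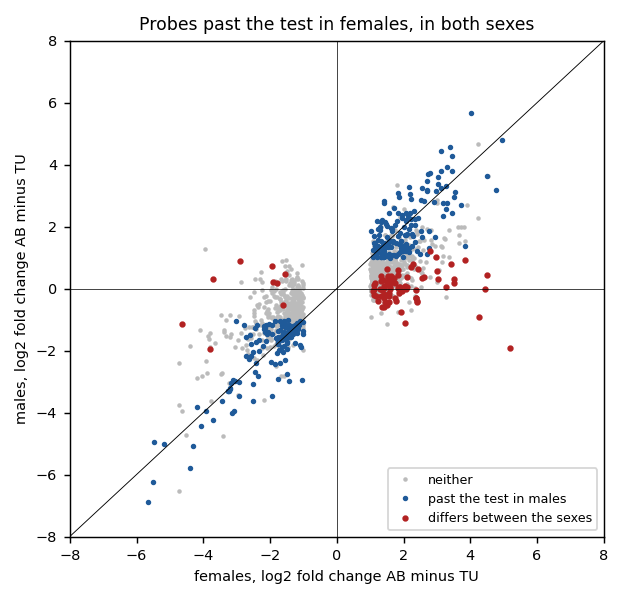
Log2 fold change, AB minus TU, in females (x axis) and males (y axis) at the 1221 probes past the test with and without TU female 3, with the line of equal change. Of these, 290 passed in males in the same direction, and the 86 in red differed between the sexes at an adjusted p of at most 0.05, 3 of them past the test in males too.

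In males the median was 0.01 for the entry genes, with 1 of 27 higher against 1.76% of all genes, and 0.65 for the folding genes, with 4 of 35 higher. Hspa5 was higher in AB males too, at 3.91 (adjusted p = 0.0241). Whether the strain difference itself differed between the sexes was tested as an interaction in all 18 fish. None of the entry genes and 3 of the folding genes passed, ero1a, derl2 and kdelr3, against 0.693% of all genes. When TU female 3 was left out this was 1 and 7, against 1.38%. Ero1a, which makes disulfide bonds for ER proteins, read 7.94, 7.71 and 7.74 in AB females and 5.98, 6.20 and 6.28 in TU females, while males averaged 6.46 ± 0.08 in AB and 6.26 ± 0.06 in TU (SD, n = 3 each).

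Over all probes 173 passed the interaction test (0.397%), and 378 without TU female 3 (0.867%), of which 162 passed both times. Hmgcra had a female fold change of 5.18 and a male one of -1.92, where AB males averaged 7.39 ± 1.02 and TU males 9.31 ± 1.17 (SD, n = 3 each). Hid1b, tied to secretory granules in mammals, stood at 2.38 in females and -0.30 in males. Fads2 was lower in AB males, at -4.58 for 1 probe, and stood at 0.66 in females. Bambia, a decoy receptor of BMP signalling, was lower in AB females at -1.55 and stood at 0.46 in males. Without any 1 of AB females 1 and 2 and TU females 1 and 2 the count of the interaction test lay between 86 and 93.

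At the 1221 probes WIK females were nearer to TU at 889 (72.8%) and nearer to AB at 332. For probes higher in AB this was 579 nearer TU and 105 nearer AB, and for those lower in AB 310 and 227. WIK readings entered the same fit as the spread estimate, and the positions are given as a description.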

How the data were processed

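The authors deposited Agilent Feature Extraction 11.0.1.1 output, with spot intensity and local background on a linear scale, not normalized. Their own log2 values (28461 accessions, of which 28404 matched) were deposited too and served as an alternative (r = 0.9925 to 0.9987 per array with the accession means computed here). Median spot signal was corrected with median background by normexp (offset 50) in limma 3.58.1 (R 4.3.3), and the 18 arrays were quantile-normalized. Spots marked as outliers were left out (69 probes lacked a value in a female), and probes were averaged over their spots after control features had been dropped. 

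The methods fit the 3 strains of a sex together, so the 9 females were fitted with 1 mean per strain, and AB minus TU was tested by limma with Benjamini-Hochberg adjustment over 43603 probes. Males were fitted in the same way, and the interaction with sex in all 18 arrays. The fits were tested on simulated data. Symbols came through RefSeq accessions (GRCz12tu) for 26043 probes and from the paper's annotation for 223, and 17337 had none. Old array names were updated, such as arntl1a to bmal1a and ptgr1 to ptgr1.1. Lists used the brightest probe per symbol.

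Named genes were the 12 largest changes in each direction and the 5 smallest p among probes called with and without TU female 3, separated and above background on all arrays of the brighter strain. Further ones were up to 5 called genes per list, or the 2 brightest where fewer than 2 were called, 7 vitellogenins, esr1, hsd17b3, genes that the paper names (dnaja4 was not matched) and 3 interaction genes per direction. Members, lists and rules were chosen with earlier results of these data known. Other genes named in the text, among them members of the ER lists, were chosen after their values were seen.

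Among AB and TU fish replicate numbers coincided with scan days, and deviations of same-numbered AB and TU females from their group means correlated at 0.25, 0.19 and 0.13, so the numbers pair these fish. Median spot signal was 36 to 67 against 22 to 31 of background in the 6 arrays, so dim probes carry little information, and 3 arrays per group limit the precision. Alternatives covered background, normalization, filters, fit, fold, blocks and each fish left out. Plots were made in matplotlib 3.10.9 (Python 3.11.15).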

Additional observations from a re-analysis of the deposited data

Results flagged for a closer look

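For 12 of the named genes the AB minus TU difference was not the same in females and males by the interaction test in 18 fish. Over all probes 0.397% passed that test. Hid1b, ero1a, si:dkey-169i5.4, znfl2a, bambia and the fads2 probe at 5.24 were named for their small p in this same test. Their passing was therefore set by the choice, and the count of 12 is no result about the named genes. Values are the female minus the male log2 fold change with its adjusted p, and then the same without TU female 3. Where females had the higher fold change, hmgcra gave 7.10 (0.0129; 7.21 and 0.0149), mid1ip1b 4.04 (0.00749; 3.95 and 0.0106), eevs 4.46 (0.0354; 3.90 and 0.0353), hid1b 2.68 (0.000167; 2.67 and 0.000396), bhlhe41 1.57 (0.0421; 1.55 and 0.048) and ero1a 1.44 (0.000196; 1.51 and 0.000396). The probes of fads2 gave 4.27 (0.0223; 4.27 and 0.0271) and 5.24 (0.000219; 5.03 and 0.000804). Where females had the lower fold change, urahb gave -3.50 (0.0104; -3.77 and 0.00579), bambia -2.02 (0.0104; -2.01 and 0.0121), sult3st3 -3.79 (0.0493; -4.42 and 0.0081), si:dkey-169i5.4 -1.36 (0.000418; -1.35 and 0.0015) and znfl2a -0.89 (0.00683; -0.86 and 0.0101). All of these passed with and without TU female 3. Si:dkey-169i5.4 was above background in no AB or TU female, so its female value of 0.03 is not a measured difference.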

How the results depend on the processing

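Counts of called probes (all, higher in AB, lower in AB) were 371, 190 and 181 at 4-fold, 2547, 1381 and 1166 with no fold cutoff, 255, 164 and 91 under median scaling, 822, 470 and 352 by accession and 768, 452 and 316 in the authors' table. Processed signal gave 1013 lower, an offset of 16 gave 968 lower, and the higher count was 497 with the 6 arrays normalized and fitted alone and 526 with those 6 fitted alone. Fewer features were tested by accession and in the authors' table. The cause of the other shifts was not tested. Without TU female 3 median scaling called 1817 probes, and the 1937 became 466 at 4-fold, 3287 with no fold cutoff and 1009 in the authors' table. The lists of ER entry and folding gave 5 and 6 at 4-fold and 2 and 1 under median scaling, and folding 5 and 6 with the 6 arrays normalized or only fitted alone. Female calls repeated in males (320) were 542 with processed signal, 566 with an offset of 16, 54 under median scaling, 177 by accession and 196 in the authors' table, and interaction calls (173) were 39 with processed signal and 31 under median scaling. Leaving out 1 fish gave 766 to 1937 called, 423 to 1087 higher, 343 to 850 lower, 4 to 11 ER entry and 4 to 20 ER folding genes, 205 to 330 repeated in males and 86 to 378 interaction calls. Counting a gene when any of its probes passed, chosen after seeing the data, gave 11 ER entry and 13 ER folding genes higher. The replicate block gave 1671 calls and, chosen after seeing the data, 2136 without TU female 3.

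None of the 77 called named genes changed sign in any alternative run. Of these, 46 lost the call under median scaling, 20 with the 6 arrays alone, 13 with processed signal, 5 with the replicate block and 5 to 28 with 1 fish left out. Of the 24 largest, eevs, ela2l, sec61a1b and sycn.1 lost it without some fish other than TU female 3. The replicate block changed no direction.

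Signs turned only at genes that had not passed. With processed signal these were nfil3-6 (0.0118), pecam1a (-0.0373), rpsa (0.0128), si:dkey-169i5.4 (-0.35), stat2 (0.10), zp3 (0.37) and zp3b (0.50), and under median scaling cimap1b (0.0571), fabp10a (0.0701), rpsa (0.11), stat2 (0.17) and zp3b (0.26). By accession nfil3-6 (0.64), stat2 (0.72) and zp3b (0.0237), and in the authors' table cimap1b (0.0133), nfil3-6 (0.53), stat2 (0.69) and zp3b (0.15) turned. Zp3b also turned with an offset of 16 (0.0751) and with slide as a block (0.0406). With 1 fish left out the ranges were -0.13 to 0.12 for cimap1b, -0.65 to 0.0859 for etfb, -0.49 to 0.10 for fabp10a, -3.38 to 1.14 for hbba2, -2.47 to 0.0049 for hsd17b3, -0.59 to 0.22 for nfil3-6, -0.10 to 0.17 for pecam1a, -0.14 to 0.0545 for rpsa, -1.39 to 0.26 for rrm1, -0.0111 to 0.0473 for si:dkey-169i5.4, -0.21 to 0.21 for stat2, -3.56 to 1.72 for thrsp, -0.03 to 2.97 for vtg6, -1.44 to 0.41 for zp3 and -0.50 to 0.47 for zp3b.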
